A study of Mus musculus with 62 samples.

Results

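Replication-dependent histone genes encode the bulk of the histone proteins onto which newly made DNA is wound. They were taken here as every gene whose name in the deposited gene tables begins with Hist1h, Hist2h, Hist3h or Hist4h, leaving out the entries named as pseudogenes with -ps. This gave 69 of 53975 genes, of which 6 encode the linker histone H1, 20 encode H2A, 18 encode H2B, 12 encode H3 and 13 encode H4. They were described in 31 long-RNA libraries of mouse hippocampus and of HT-22 cells, a dividing mouse hippocampal cell line.

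The 17 hippocampus libraries came from 1 mouse each, with both hemispheres combined. The mice were C57BL/6J (called WT here) or carried the App knock-in allele NL-G-F (called APP here), which leads to amyloid plaques. There were 2 WT and 3 APP mice at 3 months, and 3 of each at 6 and at 12 months. The 14 HT-22 libraries came from cells at passage 4 that received a locked nucleic acid oligonucleotide (LNA) for 24 h and then a peptide at 30 uM in DMSO. The LNA was directed against Hsf1 at 150 nM or was a scramble, which the labels give at 50 uM. The peptide was amyloid beta 1-42 (Aβ42) or a control with the reversed sequence. Scramble LNA was followed by the reverse peptide in 4 libraries and by Aβ42 in 4, and the LNA labelled anti-Hsf1 was followed by each peptide in 3. Every HT-22 library therefore received both an LNA and a peptide, and no untreated cells were analysed here. HT-22 is a single immortalised line, and the labels do not say whether its replicates were grown on separate days, so p-values measure the spread between these libraries.

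Cells make these messengers mainly in S phase, when DNA is copied, and destroy them when copying ends. The genes are short, usually without introns, and lie in clusters. Their messengers are the known exception among those of animals in that they end in a stem-loop in place of a poly(A) tail, and the stem-loop binding protein Slbp acts on it in processing, translation and decay. Neurons do not divide, so in adult brain such messengers are usually attributed to the few dividing cells or to the few family members that also make polyadenylated forms. Libraries made after removal of ribosomal RNA, as here, can include messengers without a poly(A) tail.

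The stem-loop is shown because it defines the family. The letters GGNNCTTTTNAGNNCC were searched on the gene's strand in the 100 bases after the stop codon in GRCm38. Of 67 members that GENCODE M21 annotates as protein coding, 63 had a match, against 3 of 21821 other coding genes (0.0137%). The commonest form, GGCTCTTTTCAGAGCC, stood in 41 members, and the form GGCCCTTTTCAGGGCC stood in 8, all of them H4 genes. The examples below run from the most abundant linker histone gene of HT-22 cells to the chromosome 11 pair, 2 of the 3 genes that were higher in hippocampus. The other such gene, Hist2h2be, had no match to show. The capitals mark the stem-loop, and each site is given on the gene's own strand.
Hist1h1b, chr13:21779832-21779857, minus strand: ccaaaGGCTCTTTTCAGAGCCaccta
Hist1h4h, chr13:23531453-23531478, plus strand: ccaaaGGCCCTTTTCAGGGCCgccca
Hist1h2bl, chr13:21715713-21715738, minus strand: tcaaaGGCTCTTTTAAGAGCCaccca
Hist3h2ba, chr11:58949344-58949369, plus strand: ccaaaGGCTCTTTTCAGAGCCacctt
Hist3h2a, chr11:58955167-58955192, plus strand: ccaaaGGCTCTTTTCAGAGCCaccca
The match lay outside the annotated gene in 16 members and inside it in 47. The 4 coding members with no match in this window were Hist1h2an, Hist1h3g, Hist1h4a and Hist2h2be. The other 2 members, Hist1h2al and Hist1h2aj, are annotated as pseudogenes in M21.

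Promoters of the family were compared because its members lay far apart in level between the cells and the tissue. RefSeq windows on GRCm38.p6, from 250 bases before to 50 after the start, were matched for 62 members in 63 windows. The letters CCAAT, the core of the site of the factor NF-Y, occurred on either strand in 54 of 63 windows (85.7%), against 37.3% of the 32788 windows of other genes. All windows of H1, H2A, H2B and H3 members held CCAAT, but only 3 of 12 H4 windows did (25.0%). TATAAA occurred on either strand in 55.6% of the members' windows and in 13.5% of the others. ATTTGCAT, the octamer read by POU-domain factors, occurred on either strand in 7 of 18 H2A and 7 of 17 H2B windows and in no H1, H3 or H4 window, against 1.7% of other windows. The 150 bases before the start are given on the gene's strand, with these letters, on either strand, in capitals.
Hist1h1b, chr13:21780626-21780775, minus strand: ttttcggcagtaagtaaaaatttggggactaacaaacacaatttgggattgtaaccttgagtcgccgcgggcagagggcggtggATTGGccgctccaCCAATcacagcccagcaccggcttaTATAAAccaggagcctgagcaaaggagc
Hist1h4h, chr13:23530894-23531043, plus strand: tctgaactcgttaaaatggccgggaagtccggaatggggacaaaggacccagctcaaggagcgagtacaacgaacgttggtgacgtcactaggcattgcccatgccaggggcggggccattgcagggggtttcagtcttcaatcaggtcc
Hist3h2ba, chr11:58948761-58948910, plus strand: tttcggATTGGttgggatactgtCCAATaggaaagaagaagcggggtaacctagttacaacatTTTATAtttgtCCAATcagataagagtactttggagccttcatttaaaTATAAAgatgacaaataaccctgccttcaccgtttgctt
Hist3h2a, chr11:58954535-58954684, plus strand: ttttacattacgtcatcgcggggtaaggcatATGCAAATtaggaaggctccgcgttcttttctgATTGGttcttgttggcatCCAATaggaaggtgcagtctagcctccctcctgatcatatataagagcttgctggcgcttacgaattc
The H4 promoter shown held none of the 3 motifs in its window, and the 3 others held CCAAT. A match is a description of letters, not of a bound factor. Some H2A and H2B genes lie back to back with overlapping windows, such as Hist1h2ae and Hist1h2bg. The same site can therefore count in both classes.

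The family's sequences limit how far its members can be told apart. Counting every run of 50 bases in a member's transcripts, a median of 49.7% of these runs also occurred in transcripts of another gene, and 34 of 69 members shared more than 50%. Hist1h4m shared 89.8% with Hist1h4n, Hist1h3h shared 79.3% with Hist1h3i, and Hist1h2al shared 65.5% with Hist2h2aa2. Hist1h1b and Hist2h2be shared none. In addition, 26 members overlap another annotated gene, 23 of them on the opposite strand, and the library kit does not mark strand, so the reads of overlapping genes cannot be separated. Values of single members with a close copy are therefore uncertain, and sums over a class are less affected by how reads were divided among its members.

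Expression was read as TPM, a unit scaled for gene length and for the total of each library. The depth cannot be given in reads, and a relative depth derived from the tables ranged from 1.42 to 3.04 in hippocampus and from 0.724 to 2.60 in HT-22 cells. Neuron markers set the systems apart. The 8 neuron markers summed to 1625 to 4219 TPM in hippocampus and to 0.0826 to 1.42 TPM in HT-22 cells, so HT-22 cells lacked the markers of mature neurons. The 4 neuroblast markers were at 0 to 0.105 TPM in HT-22 cells. Sums of the hippocampal excitatory neuron, astrocyte, oligodendrocyte, choroid plexus and endothelium markers were also lower in every HT-22 library. The 4 oligodendrocyte precursor markers went the other way, at 80.1 to 172.2 TPM in HT-22 cells and 26.0 to 63.0 TPM in hippocampus. The 6 microglia markers overlapped, at 27.6 to 93.0 TPM and 90.3 to 213.8 TPM. Hsf1 was at 42.9 to 70.6 TPM with scramble and at 45.7 to 59.9 TPM with the LNA labelled anti-Hsf1 under the reverse peptide. Under Aβ42 it was at 60.3 to 80.0 TPM and 27.7 to 44.0 TPM, without overlap. Values were also scaled by the median of ratios, which brings the typical gene to the same level in every library. On that scale Hsf1 under Aβ42 overlapped, at 48.8 to 71.6 with scramble and 43.4 to 51.5 with the LNA labelled anti-Hsf1, and its log2 difference of -0.37 was not called. Hsf1 after scaling thus did not set the labelled groups apart under either peptide, and the LNA groups are named by their labels throughout. Both scales are given because the typical gene moved between groups on the deposited one. The 69 genes made up 0.328% to 0.903% of TPM in HT-22 cells and 0.046% to 0.076% in hippocampus.

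HT-22 cells held far more histone messenger than hippocampus. The summed TPM of the 69 members ranged from 3276 to 9031 over the 14 HT-22 libraries, with a median of 4849. In the 17 hippocampus libraries it ranged from 463.9 to 761.9, with a median of 544.7. The lowest HT-22 library lay 4.30-fold above the highest hippocampus library, and the means differed 9.87-fold. Scaling all 31 libraries together by the median of ratios reduced this to 5.05-fold. Cell line and culture differ together between the systems and cannot be told apart, and any difference in library batch could not be separated from them. In bulk RNA more dividing cells cannot be told from more messenger per cell.

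**Figure D1:**
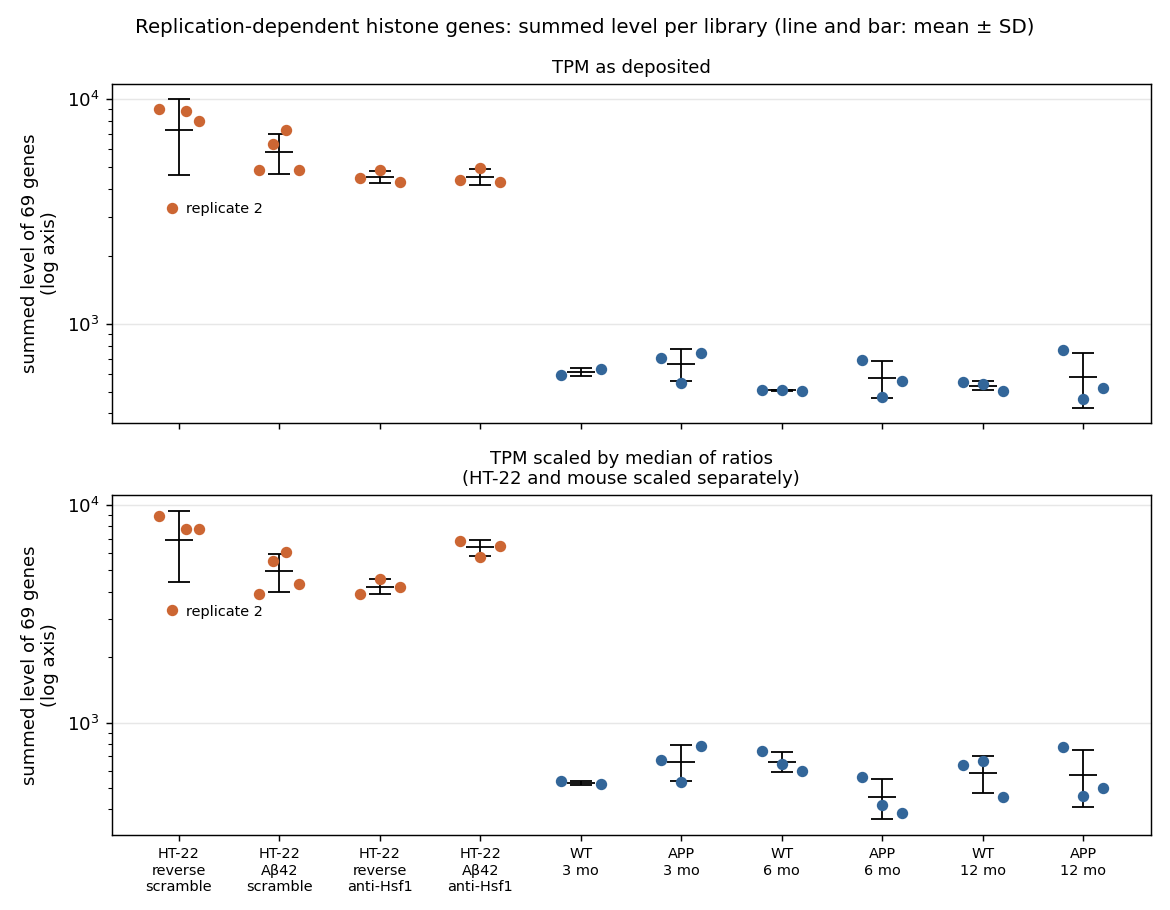
Summed level of the 69 histone genes in each library (points; log axis) with mean ± SD per group, as deposited TPM (top) and after scaling each system by median of ratios (bottom). All HT-22 libraries lie above all hippocampus libraries, and replicate 2 of the reverse peptide and scramble group lies below its 3 companions on both scales.

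A fit of all 31 libraries with limma compared HT-22 cells under the reverse peptide and scramble LNA with the mean of the 3 WT ages. Of 64 members tested, 60 were higher and 3 lower in HT-22 cells at an adjusted p below 0.05, against 84.4% of all 19596 genes called either way, 58.7% higher and 25.8% lower. After median of ratios 54 were higher and 3 lower, with 76.7% of all genes called, 33.5% higher and 43.2% lower. The median log2 difference of the members was 4.07, and 3.04 after scaling, where the median of all genes was 0.76 and -0.13. Without any test, 49 of the 64 members had every HT-22 library above every hippocampus library, which held for 26.2% of all genes. Without replicate 2 of the HT-22 group, which is described further on, 60 members were higher and 3 lower, and 59 and 4 after scaling, against 83.2% and 74.8% of genes called either way. The fourth lower member was then Hist1h2be, and the 1 not called after scaling was Hist2h2ab.

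The linker histone Hist1h1b, encoding H1.5, was the most abundant member in HT-22 cells. It ranged from 266.6 to 523.9 TPM there, with a median of 384.5, and from 1.78 to 7.94 TPM in hippocampus, with a median of 3.27. These ranges were far apart. In the comparison of the systems, TPM ranges and their medians cover all 14 HT-22 and all 17 hippocampus libraries. Fitted differences compare only the reverse peptide and scramble group with the mean of the WT ages. For Hist1h1b the fitted log2 difference was 6.63 ± 0.16 (SE; adjusted p = 5.96e-23, limma with Benjamini-Hochberg adjustment), or 5.65 ± 0.18 after scaling. Hist1h1c, encoding H1.2, had the smaller difference of 3.19 ± 0.18, and ranged from 132.4 to 346.2 TPM in HT-22 cells and from 21.4 to 36.8 TPM in hippocampus. It was the only gene among the 10 highest of both systems. Hist1h1e, encoding H1.4, ranged from 155.8 to 310.7 TPM and from 5.11 to 25.4 TPM, and it overlaps Hist1h2be on the same strand. The testis linker histone Hist1h1t stayed at 0 to 2.18 TPM in all libraries. Ratios of mean TPM over the 6 H1 genes ran from 5.55 to 108, with a median of 10.1.

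The H2A and H2B genes, whose products pair with each other in the nucleosome core, showed the widest spread between members. Hist1h2al had the highest ratio, with 110.8 to 380.0 TPM in HT-22 cells and 0 to 0.685 TPM in hippocampus. It is the member annotated as a processed pseudogene. It shares 67.6% of its 50-base runs with other genes, and 65.5% with Hist2h2aa2, so its value is uncertain although part of its sequence is its own. Hist2h2aa2 was listed at 0 TPM in every library, and all of its 50-base runs also occur in Hist2h2aa1. Hist1h2bl, an H2B gene, ranged from 85.4 to 314.5 TPM in HT-22 cells and from 0.810 to 4.38 TPM in hippocampus, a log2 difference of 6.20 ± 0.25 (adjusted p = 3.68e-18, limma). Hist1h2bc differed least among the abundant H2B members, with 19.9 to 63.2 TPM against 11.9 to 27.3 TPM. These ranges overlapped, and its log2 difference of 1.28 ± 0.23 became 0.21 after scaling (adjusted p = 0.403, limma). Without replicate 2 of the HT-22 group the scaled value was 0.57 ± 0.19 and passed (adjusted p = 0.00943). Ratios of mean TPM had a median of 25.1 over the H2A genes with a value and 21.2 over the H2B genes.

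The H3 genes, whose products pair with H4 in the nucleosome core, were higher in HT-22 cells in all 11 tested members on both scales. Hist1h3c ranged from 70.3 to 204.4 TPM in HT-22 cells and from 0.753 to 3.93 TPM in hippocampus, a log2 difference of 6.00 ± 0.24 (adjusted p = 2.83e-18, limma). Hist1h3e, at 60.1 to 139.8 TPM and 6.55 to 17.4 TPM, had the smallest H3 ratio of means, 8.29. Hist2h3c2 ranged from 109.3 to 246.7 TPM and from 2.60 to 7.09 TPM. The median H3 ratio was 24.9.

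The H4 genes differed least between the systems. The ratio of mean summed TPM, HT-22 over hippocampus, was 3.16 for H4, against 11.8 for H2B, 15.8 for H1, 17.8 for H2A and 21.2 for H3. H4 made up 41.4% to 53.8% of the summed histone TPM in hippocampus and 11.9% to 19.4% in HT-22 cells, so these ranges did not overlap. Among the 10 highest members, 7 were H4 genes in hippocampus and 0 in HT-22 cells. Hist1h4h was the highest member in hippocampus, from 33.4 to 67.6 TPM with a median of 47.6, and ranged from 46.6 to 211.7 TPM in HT-22 cells. These ranges overlapped, and its log2 difference of 1.45 ± 0.25 (adjusted p = 9.63e-06, limma) became 0.37 after scaling (adjusted p = 0.200). All 13 H4 genes were higher in HT-22 cells on deposited TPM and 9 of 13 after scaling, with class medians of 2.13 and 1.05. The 4 that were not called after scaling were Hist1h4c, Hist1h4h, Hist1h4m and Hist1h4n. Without replicate 2 of the HT-22 group all 13 were called higher on both scales, with class medians of 2.47 and 1.41, and Hist1h4h was at 0.79 ± 0.21 after scaling (adjusted p = 0.0013). No test was made of the difference between classes, and the H4 promoters' lower share of CCAAT was not tested against it.

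**Figure D2:**
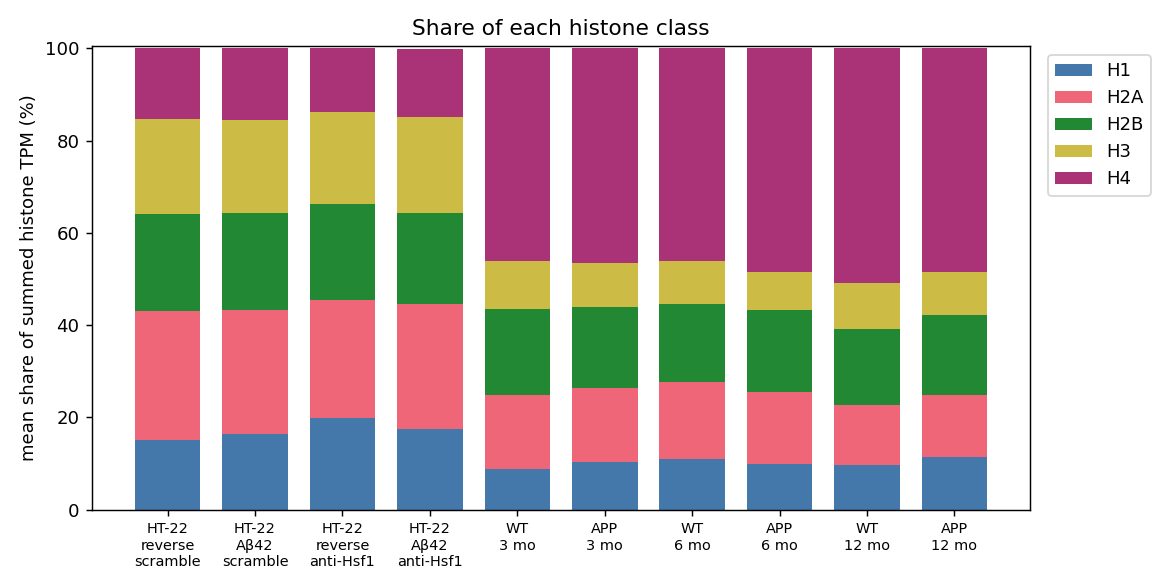
Mean share (%) of the summed histone TPM held by each of the 5 classes in the 4 HT-22 and 6 hippocampus groups. H4 holds the largest share in every hippocampus group, from 46.15% to 50.93%, and from 13.87% to 15.60% in the HT-22 groups.

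**Figure D3:**
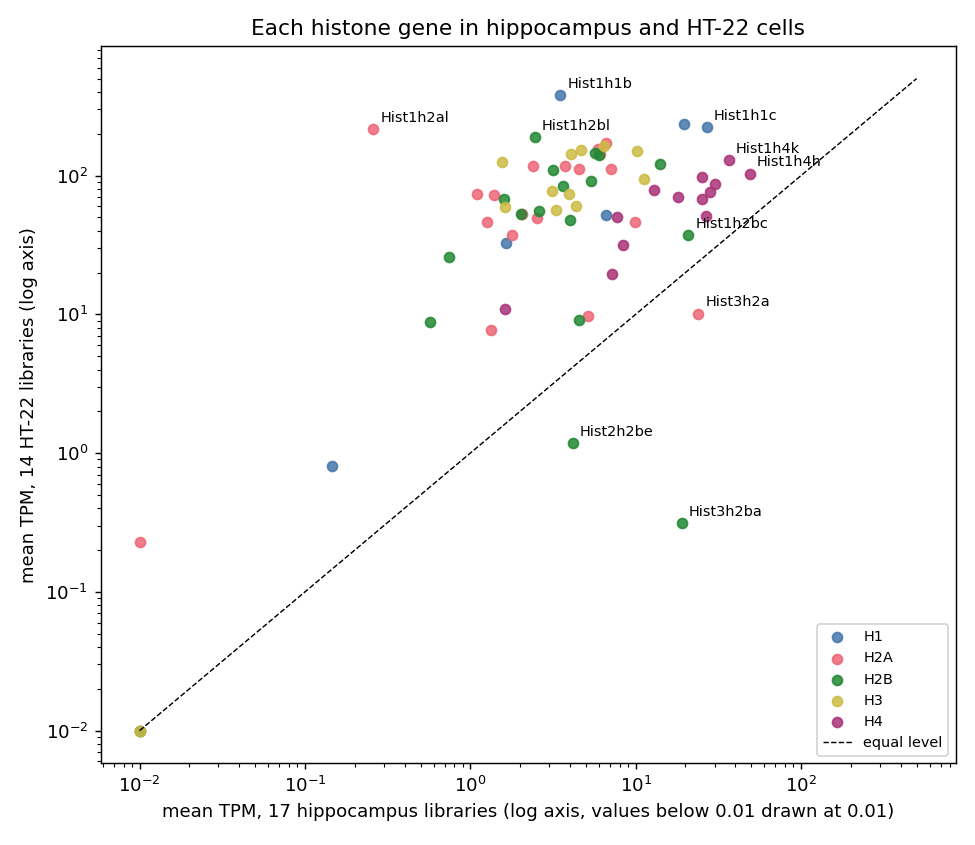
Mean TPM of each of the 69 members over 17 hippocampus libraries (horizontal, log axis) and 14 HT-22 libraries (vertical, log axis), coloured by class, with the line of equal level. Hist3h2ba, Hist3h2a and Hist2h2be lie below the line, and several H4 genes lie close above it.

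The order of the members was only loosely shared by the systems. Over the 69 members, Spearman's rho between mean TPM in HT-22 cells and in hippocampus was 0.35, given as a description because members share sequence and libraries. The 10 highest members held 50.7% of the summed TPM in hippocampus and 35.8% in HT-22 cells. By location, the 56 genes named Hist1h, all on chromosome 13, summed to 5242 TPM in HT-22 cells and 494.0 TPM in hippocampus, as means. They include Hist1h2al, which lies far from the others at chr13:51202727, with means of 217.0 and 0.2593 TPM. The 2 genes on chromosome 11 went the other way, at 10.4 and 42.8 TPM.

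Hist3h2ba, Hist3h2a and Hist2h2be had every hippocampus library above every HT-22 library, which held for 19.9% of all genes. Hist3h2ba, an H2B gene at chr11:58948920, ranged from 12.5 to 25.4 TPM in hippocampus with a median of 19.4. In HT-22 cells it was listed at 0 in 6 of 14 libraries and reached at most 1.181 TPM. Its log2 difference was -4.06 ± 0.20 (adjusted p = 3.44e-16, limma), and -4.68 ± 0.17 after scaling. Its neighbour Hist3h2a, an H2A gene, ranged from 18.2 to 33.1 TPM in hippocampus and from 6.35 to 16.8 TPM in HT-22 cells. The log2 difference of Hist3h2a was -0.78 ± 0.17 (adjusted p = 1.34e-04, limma), and -1.81 ± 0.14 after scaling. It overlaps Trim17 on the same strand and shares 31.5% of its 50-base runs with it. Hist2h2be, an H2B gene on chromosome 3 with a 2620-base annotation and no stem-loop match, ranged from 2.88 to 6.57 TPM and from 0.445 to 2.35 TPM. Its log2 difference was -1.36 ± 0.19 (adjusted p = 2.77e-07, limma). Hist3h2a and Hist3h2ba carry both the stem-loop and CCAAT shown above, as do members with the opposite pattern such as Hist1h1b.

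Lists of other histone and cell cycle genes were compared between the systems in the same fit. Of 23 S-phase and division genes such as Pcna, Mcm2 and Top2a, all 23 were higher in HT-22 cells on both scales, and their summed level ranged from 1417 to 2754 TPM there and from 50.8 to 86.2 TPM in hippocampus. Of 11 histone genes listed as replication-independent, among them Cenpa and H2afx, 9 were higher and 2 lower, and 7 and 2 after scaling. Of 14 tested genes for histone messenger processing and supply, such as Slbp and Npat, 14 were higher, and 10 higher with 3 lower after scaling. Of all 19596 genes in this fit, 11496 were higher and 5050 lower, and 6567 and 8466 after scaling. Median log2 differences on deposited TPM were 5.38, 2.23 and 2.25 for these lists, beside 0.76 for all genes. Without replicate 2 of the HT-22 group the counts of the lists were the same, except that 6 replication-independent histone genes were higher after scaling. The scaled medians of the lists were then 4.68, 1.16 and 1.25, beside -0.14 for all genes.

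Within HT-22 cells, the groups were compared for the effect of the peptide, of the LNA and of their interaction. With the reverse peptide and scramble, the summed level was 9031, 3276, 8881 and 7975 TPM in replicates 1 to 4. With Aβ42 and scramble it was 4833, 6326, 7273 and 4856 TPM. With the LNA labelled anti-Hsf1 it was 4444, 4841 and 4292 TPM under the reverse peptide, and 4355, 4941 and 4281 TPM under Aβ42. Of the first group, 3 libraries lay above all others and replicate 2 lay below all others.

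Replicate 2 of the reverse peptide and scramble group stood apart in its histone genes. It was the lowest of its group in 59 of 62 members with a group mean of at least 1 TPM, against 32.9% of 17291 genes. The members' median ratio to the mean of the other 3 libraries was 0.357, against 0.921 over all genes. Its summed S-phase list, 2150 TPM, lay within the group's range of 2140 to 2482 TPM. The replication-independent histone list was lowest of the group there, at 1291 TPM beside 1566 to 1818 TPM, and so was Hsf1, at 42.9 TPM beside 54.0 to 70.6 TPM. H1 held 22.0% of the histone total there and H4 11.9%. The library was singled out by the values of these same genes, so what is given without it below, and in the comparison with hippocampus above, is a description and no test of the family.

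Under scramble LNA, no member passed the test for Aβ42 against the reverse peptide, and neither did any of the 17291 genes (0%). At an unadjusted p below 0.05 there were 4 of 63 members, against 8.61% of all genes, and 10 after scaling, against 4.95%. The direction was shared, with 55 of 63 log2 differences below 0 on TPM and 61 after scaling, and medians of -0.24 and -0.40 beside 0.15 and 0 for all genes. Without the library that stood apart the medians were -0.62 and -0.75, and the adjusted count was again 0 on both scales, as it was for all genes.

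Under the reverse peptide, the libraries labelled anti-Hsf1 showed no called member against scramble, and 0% of all genes were called. Of 63 members, 18 had an unadjusted p below 0.05, against 2.71% of all genes, and 22 after scaling, against 3.65%. Log2 differences were below 0 in 59 of 63 members on both scales, with medians of -0.61 and -0.65 beside 0.03 and 0 for all genes. H4 genes had the lowest class median, -0.70, and H1 genes the highest, -0.15. Without the library that stood apart the medians were -0.99 and -1.0, and again no member and no other gene was called. Hsf1 itself overlapped between these groups, as given above. Both this comparison and the preceding one use the same scramble libraries, so their likeness is not a separate result.

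Under Aβ42, the direction of the LNA comparison depended on the scale. On TPM the members' median log2 difference, anti-Hsf1 against scramble, was -0.37, less low than the -0.62 of all genes. After scaling it was 0.33 beside 0 for all genes, and 60 of 63 members were above 0. Correspondingly, scaled sums were 6831, 5784 and 6504 in the libraries labelled anti-Hsf1 and 3914, 5552, 6070 and 4347 with scramble. These ranges still overlapped. Only Hist1h2be was called, against 50.7% of all genes on TPM, and no member after scaling, against 0.0231%. At an unadjusted p below 0.05 there were 4 members on TPM, against 57.9% of all genes, and 7 after scaling, against 8.99%.

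Among the libraries labelled anti-Hsf1, Aβ42 against the reverse peptide gave no called member, against 24.3% of all genes on TPM and 0% after scaling. The members' median log2 difference was -0.01 on TPM and 0.57 after scaling, beside -0.52 and 0 for all genes. No member had an unadjusted p below 0.05 on TPM, where 44.3% of genes did, and 14 did after scaling, against 4.65%. Sums overlapped on TPM, and after scaling the 3 Aβ42 libraries, at 5784 to 6831, lay above the 3 with reverse peptide, at 3899 to 4553. The S-phase list did not share that pattern, with 13 of 23 genes lower on TPM, a median of -0.54 there, and a scaled median of 0.05 with 0 called.

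The interaction asks whether the peptide difference itself depended on the LNA. No member was called on either scale, against 25.3% of all genes on TPM and 0% after scaling. The median was 0.24 on TPM and 0.99 after scaling, beside -0.68 and -0.01 for all genes. After scaling, 62 of 63 members were above 0 and 34 had an unadjusted p below 0.05, against 5.14% of genes. On TPM 1 member did, against 43.3%. Without the library that stood apart, 6 members were called on TPM, all of them higher. Of all genes 0.0869% were then called higher and 17.7% lower, and 17.7% either way, with a median of -0.66. After scaling no member was called, and 0% of genes, and the members' median was 1.36.

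**Figure D4:**
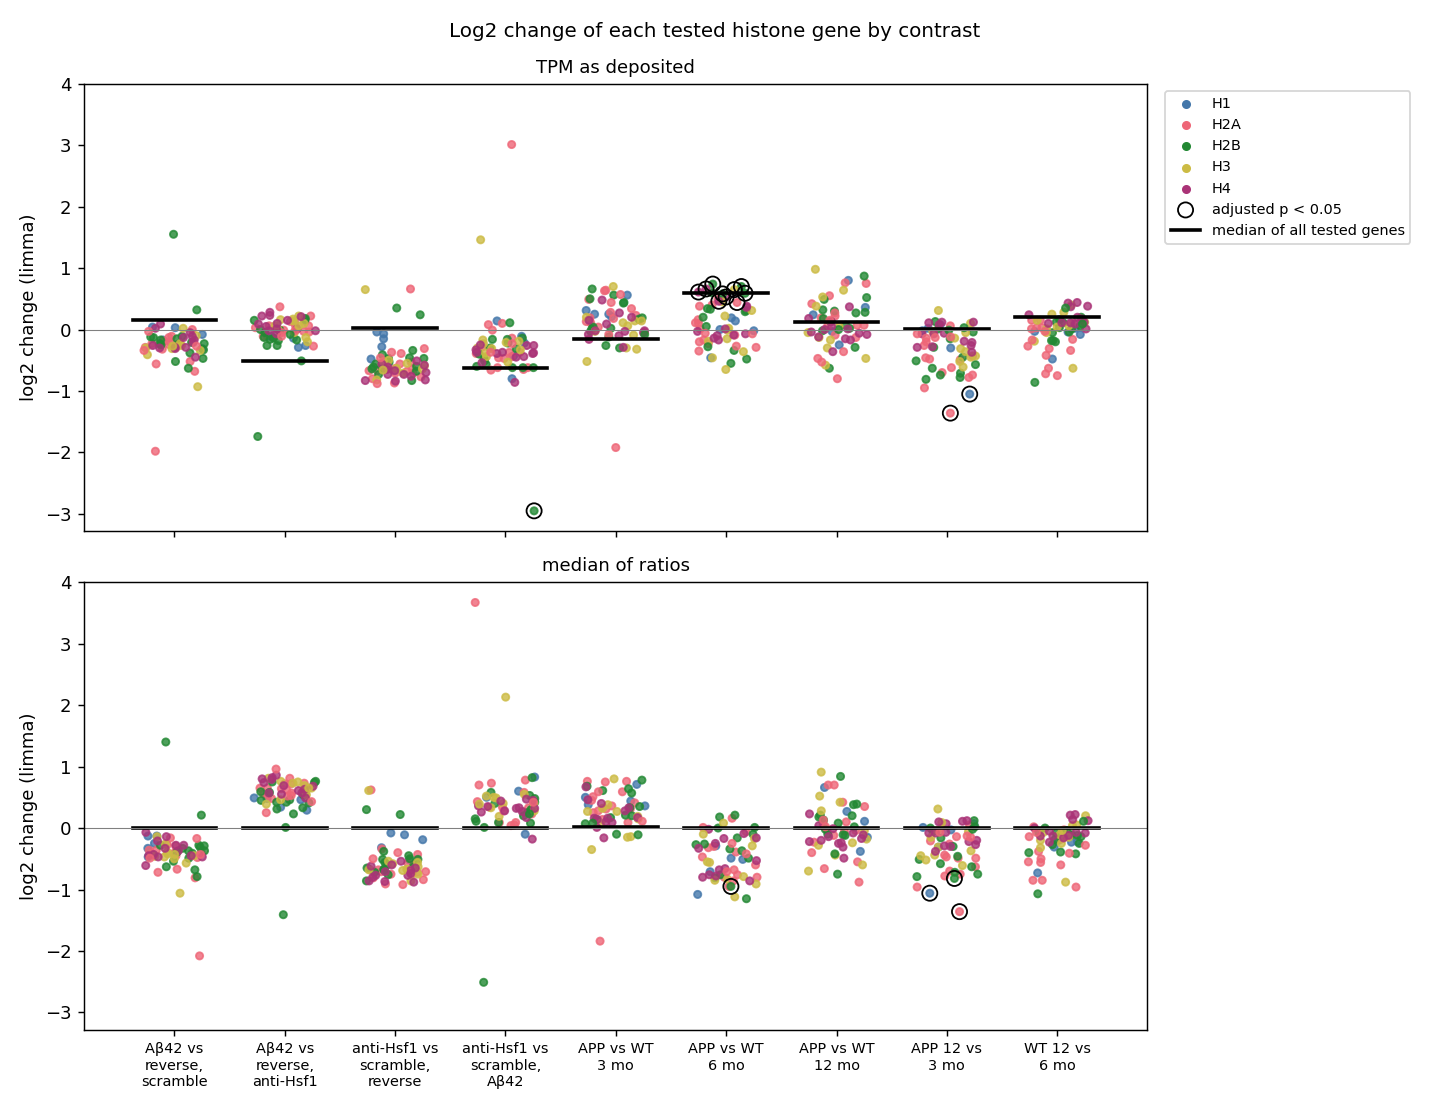
Fitted log2 change of each tested member in 9 comparisons (points, coloured by class; circles mark an adjusted p below 0.05), on deposited TPM (top) and after median of ratios (bottom), with the median of all tested genes as a bar. In the HT-22 comparisons most members lie together and apart from the bar, and most of the circled points are in APP against WT at 6 months on deposited TPM, where the bar lies at 0.60.

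Hist1h2be, an H2B gene whose annotation spans 37455 bases, did not follow the rest of the family. With Aβ42 it was at 1.60, 25.8, 27.5 and 20.2 TPM with scramble and at 0.506, 0.739 and 1.44 TPM with the LNA labelled anti-Hsf1. All scramble libraries were higher, but 1 of them only just. With the reverse peptide it was at 5.27, 15.7, 2.65 and 0.479 TPM with scramble and at 20.8, 2.23 and 2.43 TPM with the LNA labelled anti-Hsf1, so those groups overlapped. The log2 difference under Aβ42 was -2.95 ± 0.94 (adjusted p = 0.0197, limma), and -2.51 after scaling (adjusted p = 0.513). On TPM the call was lost without replicate 3 of Aβ42 and scramble (adjusted p = 0.0523) and without replicate 1 of Aβ42 and anti-Hsf1 (adjusted p = 0.0642). Hist1h2be overlaps Hist1h1e on the same strand.

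Hist2h2aa1 and Hist2h3c1, neighbours on chromosome 3 that overlap the gene Gm20634, varied widely between libraries of one group. These members were singled out after their values were seen. With the reverse peptide and scramble, Hist2h2aa1 was at 0.896, 57.2, 202.3 and 439.7 TPM, and Hist2h3c1 was at 163.3, 65.1, 147.7 and 2.88 TPM. All 50-base runs of Hist2h3c1 and of Hist2h2aa2 occur in other genes, so which gene received the reads cannot be told.

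In hippocampus, the histone total as deposited did not separate APP from WT mice at any age. Summed TPM was 594.6 and 629.5 in WT and 544.7 to 742.4 in APP at 3 months. It was 502.8 to 508.0 in WT and 475.2 to 689.6 in APP at 6 months, and 502.6 to 549.4 and 463.9 to 761.9 at 12 months. APP ranges enclosed the WT range at each age. After scaling the ranges overlapped at 3 and 12 months but not at 6 months, with 598.9 to 738.0 in WT and 383.0 to 563.4 in APP. Xist was at 74.8 to 201 TPM in all 9 APP and both 3-month WT libraries, and Ddx3y, a Y-linked gene, at 19.3 to 23.4 TPM in the 6 other WT libraries. Genotype and sex thus cannot be told apart at 6 and 12 months.

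At 3 months no member was called between APP and WT, against 0.398% of 17840 genes on TPM and 0.297% after scaling. At 12 months no member was called either, against 0.639% and 0.454%. At an unadjusted p below 0.05 there were 0 and 9 of 61 members on TPM at these ages, against 13% and 7.5% of genes, and 6 and 5 after scaling, against 13.3% and 6.98%. At 3 months the members' median log2 difference was 0.14 on TPM beside -0.16 for all genes, with 40 of 61 members above 0. After scaling it was 0.28 beside 0.01, with 54 of 61 above 0. At 12 months it was 0.06 on TPM beside 0.12 for all genes, and -0.04 after scaling beside 0, with 36 and 26 of 61 above 0.

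At 6 months 10 of 61 members were higher in APP on TPM, but 58% of all genes were called there, 57.6% higher, and the median of all genes was 0.60. The members' median was 0.02, and -0.49 after scaling, beside 0 for all genes. None of the 10 was called after scaling. The highest was Hist1h2bf, an H2B gene, at 6.47, 3.27 and 6.30 TPM in APP and 2.50, 3.03 and 2.51 TPM in WT. Its log2 difference was 0.74 ± 0.23 (adjusted p = 0.0122, limma), and 0.18 after scaling (adjusted p = 0.719). After scaling 1 member was called, Hist3h2ba, against 1.43% of all genes, and 24 of 61 members had an unadjusted p below 0.05, against 16.9%. Hist3h2ba was at 15.3, 12.5 and 15.5 TPM in APP and 19.4, 13.8 and 20.4 TPM in WT. Its TPM ranges overlapped, with a log2 difference of -0.28 ± 0.19 (adjusted p = 0.213, limma), and -0.95 ± 0.20 after scaling (adjusted p = 0.0346). The scaled call was lost without any 1 of 4 libraries, APP replicates 2 and 3 and WT replicates 1 and 3, with adjusted p between 0.0703 and 0.134.

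Both pairs of ages compared here lay on the same side in Xist and Ddx3y, although Xist itself was at 74.8 to 89.8 TPM at 3 months and at 102.5 to 117.9 TPM at 12 months in APP. Between 3 and 12 months in APP, 2 of 61 members were lower on TPM, against 1.6% of all genes called and 0.454% called lower. After scaling there were 3, against 3.34% and 1.49%. Hist1h1b was at 6.78, 4.66 and 7.94 TPM at 3 months and at 3.49, 2.15 and 2.12 TPM at 12 months, with no overlap. Its log2 difference was -1.05 ± 0.24 (adjusted p = 0.0328, limma), and -1.06 after scaling (adjusted p = 0.0465). Hist1h2ag, an H2A gene, was at 3.41, 2.19 and 5.31 TPM at 3 months and at 1.44, 0.223 and 0.772 TPM at 12 months. Its log2 difference was -1.36 ± 0.27 (adjusted p = 0.0130), and -1.36 after scaling (adjusted p = 0.0177). Hist1h2bk, an H2B gene, was at 5.19, 3.72 and 5.21 TPM and then at 2.65, 2.14 and 1.93 TPM, also without overlap. It passed after scaling, at -0.82 ± 0.18 (adjusted p = 0.0263, limma), but not on TPM (adjusted p = 0.0593). Hist1h2ag shares 78.9% of its 50-base runs with other genes and Hist1h2bk 74.2%, so their values are uncertain, while Hist1h1b shares none.

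These age differences were small in level and sensitive to single libraries. Leaving out APP replicate 2 or 3 at 12 months left no member called on either scale, and the adjusted p of Hist1h2ag was then 0.0619 to 0.0908. The call of Hist1h1b on TPM was also lost without replicate 1 or 3 at 3 months (adjusted p = 0.103 and 0.0985, limma). Over the family, 49 of 61 log2 differences were below 0 on TPM, with a median of -0.26 beside 0.01 for all genes. The S-phase list had 0 of 12 genes called and a median of -0.07. Of 5 oligodendrocyte markers 3 were lower at 12 months, and their sum went from 1386 to 2372 TPM at 3 months to 973 to 1053 TPM at 12 months. Of 4 oligodendrocyte precursor markers 1 was lower, Gpr17 at -1.08 ± 0.22 (adjusted p = 0.0136), and their sums of 41.5 to 62.2 TPM and 38.8 to 44.3 TPM overlapped. Of 6 microglia markers 3 were higher. Astrocyte markers summed to 795.2 to 916.5 TPM at 3 months and 1373 to 1592 TPM at 12 months. Hippocampal excitatory neuron markers summed to 59.1 to 134.3 TPM and then 148.2 to 156.8 TPM. Neuroblast markers were lower at 12 months, at 20.23 to 23.59 TPM and then 17.03 to 18.85 TPM. Sums of the neuron, choroid plexus and endothelium markers overlapped between these ages. The part of these cell types in the histone differences was not tested. In WT, 12 against 6 months gave no called member, and 0% of genes, with 3 members at an unadjusted p below 0.05 on TPM, against 12.6%, and 5 after scaling, against 6.72%.

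Members at the bottom of the range complete the family. Hist2h2aa2, Hist2h3b and Hist2h2bb were listed at 0 TPM in all 31 libraries. Hist1h2aa, a testis H2A gene, was listed at 0 in all hippocampus libraries and reached 0.974 TPM in HT-22 cells. Mean TPM was at least 1 in 63 of 69 members in HT-22 cells and in 61 in hippocampus. The only H4 gene on chromosome 6, Hist4h4, ranged from 7.29 to 17.2 TPM in HT-22 cells and from 0.962 to 2.25 TPM in hippocampus.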

How the data were processed

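Values come from 31 long-RNA libraries, with 1 deposited gene abundance table each. The columns the authors deposited, per the file headers, are TPM, FPKM and a coverage signal for every gene. TPM was analysed, the deposited coverage signal and FPKM served only to derive relative depth, and no read counts were used. The submitters' processing notes name FastQC, cutadapt 1.18, BWA 0.7.17, HISAT2 2.1.0, bedtools 2.26.0 and StringTie 1.3.4d and the build mm10/GRCm38, without saying which made which file. Ribosomal RNA was depleted before library preparation, per the labels' protocols.

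TPM was summed per gene identifier. Contrasts were fitted with limma 3.58.1 (R 4.3.3; trend and robust moderation) on log2(TPM + 1) over genes averaging 1 TPM or more, in 3 fits: HT-22 (14 libraries), hippocampus (17) and both (31). Fold changes on this scale understate those of low genes. P-values were adjusted over all genes in a fit by Benjamini-Hochberg, and an adjusted p below 0.05 was called. The same fits were run after median-of-ratios scaling and under the alternatives in the closing section. The test was tried on simulated data. No 2 libraries held identical values. Short-RNA files were not used here.

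The members and gene lists were chosen with earlier results of these data known. Named members were the 10 highest of each system, up to 5 of the called members with the largest change per contrast and scale, the highest of each class, and the 3 with the highest hippocampus over HT-22 ratio, with others named where stated. Replicate numbers were not used as a block, since of same-numbered pairs of libraries only 3 of 19 in HT-22 cells and 3 of 40 in hippocampus had deviations correlated above 0.1. The 69 members had the same interval in GENCODE M21 as in the deposited tables, so sequences were read from GRCm38.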

Additional observations from a re-analysis of the deposited data

Results flagged for a closer look

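Of 62 members tested for a library far from the others in the reverse peptide and scramble group, 3 had replicate 2 far below the other 3 libraries. Hist1h2bl was at 85.4 TPM there, Hist1h3c at 70.27 TPM and Hist1h3e at 63.85 TPM. Chance marks about 1 in 20 groups, and the 62 tests share the same libraries. The other 3 libraries of that group held 296.4, 297.2 and 314.5 TPM of Hist1h2bl.

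Hist2h3c2, an H3 gene, had log2 differences of opposite sign in APP against WT at 2 ages. The value was -0.32 ± 0.25 at 3 months, which was not called (adjusted p = 0.61, limma). At 6 months it was 0.65 ± 0.22 (adjusted p = 0.0204, limma), where the median of all genes was 0.60. Every APP library was below every WT library at 3 months and above at 6 months. The difference between the ages was not tested. After scaling the values were -0.15 at 3 months and 0.08 at 6 months, and neither was called.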

How the results depend on the processing

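The typical gene moved between some groups on deposited TPM, so scaling matters most. In APP against WT at 6 months, 10 members were called on TPM (58% of all genes), 1 after median of ratios (1.43%), 1 after quantile normalisation (1.96%), 5 with no filter (26.3%), 6 with a mean TPM of at least 5 (75.2%), and 2 with a replicate block after median of ratios (1.61%). There, median of ratios turned Hist1h2bc to -0.10, Hist1h4b to -0.02, Hist1h4h to -0.17, Hist1h4k to -0.09, Hist2h2be to -0.00 and Hist3h2a to -0.25, with the same values under the replicate block. Quantile normalisation gave -0.06 for Hist1h2bc, -0.12 for Hist1h4h, -0.04 for Hist1h4k and -0.20 for Hist3h2a. In anti-Hsf1 against scramble under Aβ42, 1 member was called on TPM (50.7% of all genes), 0 after median of ratios (0.0231%), quantile normalisation (0.00578%) or the replicate block with median of ratios (0.0116%), 2 with a mean of at least 5 (70.8%), and 11, all lower, in a fit of those groups alone (44.8%). In APP at 12 against 3 months the count of 2 (1.6% of all genes) became 1 with no filter (0.759%) and 0 with a mean of at least 5 (1.44%) or the groups alone (0.754%). These alternatives changed no other count by over 1.5 times, and the replicate block alone changed none.

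Leaving out 1 library at a time gave, over both scales, 0 to 2 called members for anti-Hsf1 against scramble under Aβ42 (0% to 53.7% of all genes), 0 to 6 for the interaction (0% to 35.8%), 0 to 10 for APP against WT at 6 months (0.355% to 58.7%) and 0 to 3 for APP at 12 against 3 months (0.511% to 4.18%). The 6 were all higher, where 15 genes in all were called higher and 3047 lower. Over both scales the 6-month values so obtained ran from -0.31 to 0.70 for Hist1h2bc, -0.13 to 0.71 for Hist1h4b, -0.31 to 0.65 for Hist1h4h, -0.30 to 0.79 for Hist1h4k, -0.11 to 0.72 for Hist2h2be, -0.06 to 0.77 for Hist2h3c2 and -0.31 to 0.55 for Hist3h2a, and every value below 0 came after median of ratios. Hist1h4c in HT-22 cells against hippocampus ran from -0.15 to 1.64. The cause was not tested.

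Mean summed TPM after median of ratios was 4215 and 6373 in the libraries labelled anti-Hsf1 with reverse peptide and Aβ42, 529.9 in WT at 3 months, 661.2 and 455.1 in WT and APP at 6 months, and 586.7 in WT at 12 months. On TPM as deposited, the mean sum without the members that overlap another gene was 3873 with Aβ42 and scramble, where all members gave 5822. With anti-Hsf1 it was 2999 under the reverse peptide and 2958 under Aβ42, where all members gave 4526 and 4526. In hippocampus this deposited sum was 469.9 and 506.9 in WT and APP at 3 months, 382.9 and 432.4 at 6 months, and 424.7 in WT at 12 months. Depth in reads is unknown, so no floor can be given for members listed at 0.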
